A study of Mus musculus with 9 samples.

Results

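A mutant form of human GATA1 was compared with an empty vector in G1E cells, a mouse erythroid progenitor line without a functional copy of its own Gata1. The comparison took the 3 libraries of cells given mutant GATA1 and the 3 libraries of cells given the empty HMD vector, 6 of the 9 libraries of the series, by their labels. The other 3 libraries, of cells given wildtype GATA1, served as the reference for how far a gene moved. All cells grew in IMDM with FCS, murine SCF and EPO, and all were infected by centrifugation with virus packaged in 293T cells. The groups therefore shared the Gata1 defect of the line, the vector backbone and the infection. The sources used here do not give which residue the mutation changes, how long after infection the cells were lysed, or whether infected cells were selected. All libraries came from 1 cell line, and the protein level and binding of the introduced factor were not measured here.

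GATA1 is a zinc finger transcription factor that binds the sequence GATA in DNA and is required for red cell, megakaryocyte and mast cell development. In erythroid precursors it activates the globin, heme and red cell membrane genes together with FOG1 (gene Zfpm1), TAL1, LDB1 and KLF1, and represses progenitor genes such as Gata2 and Kit. G1E cells are arrested as immature precursors and mature when GATA1 function is given back, so they are widely used to test forms of GATA1.

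The labels were checked first on the human GATA1 count, which was kept out of all gene tests. It stood at 653.3, 706.1 and 598.3 CPM, a count divided by its library's total and put on a common scale, in mutant libraries 1 to 3, and at 816.3, 714.9 and 921 in wildtype libraries 1 to 3. Empty vector libraries held 0, 2 and 0 counts. The mutant mean of 652.6 ± 53.91 CPM (SD, n = 3) was 79.8% of the wildtype mean of 817.4 ± 103.1 (SD, n = 3). A two-sided exact permutation test gave p = 0.1, the smallest that 3 against 3 libraries allow. Reads of the disrupted mouse Gata1 gene gave 49.8, 48 and 48.9 CPM with the mutant and 40, 37 and 41.8 with the empty vector, a log2 difference of 0.30 (SE 0.12, adjusted p = 0.355) that was not called.

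Library totals ranged from 11364358 to 17289307 counts. A gene with 0 counts in a library could still have up to 3, which is 0.174 to 0.264 CPM. Mutant libraries 1 and 2 lay closer to each other than any other pair (a chi-square of 2.21 per degree of freedom over genes, against 24.6 or more for the other pairs within the mutant group), though not within sampling noise, and were kept apart. Empty vector library 3 correlated more with mutant libraries 1 and 2 (Pearson r of log2 CPM 0.993 for both) than with empty vector library 1 (0.98). Across 9676 tested genes with a known sequence, the difference between mutant and empty vector had a Spearman rho of 0.568 with the GC content of the transcript, and the difference between empty vector libraries 3 and 1 had a rho of 0.638. Genes are not independent replicates, so these are descriptions. How far single results moved with these libraries or with GC content is given only where a fit without a library, or with offsets for transcript length and GC content, is named.

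Few genes were called between mutant GATA1 and the empty vector, among them 6 globin genes, Slc4a1 and Alas2 upward and Cpa3 and Tec downward. With edgeR's quasi-likelihood test, 21 of 9978 tested genes were called higher with the mutant at an adjusted p under 0.05 (0.21% of those tested) and 6 lower (0.0601%). The 21 comprised 6 globin genes, the anion exchanger Slc4a1, the heme synthesis enzyme Alas2, the water and glycerol channel Aqp3, the acetylcholinesterase gene Ache, and Crat, Pdzk1ip1, Prelp, Prg3, Slc34a3, Bhlha15, Spon2, Adgrg5, Ubald1, Cysrt1 and Rnf224. The 6 were Cpa3, Tec, Sgk1, Mns1, Havcr2 and Ms4a2. In all 27 the mutant and empty vector libraries did not overlap, a pattern that 8.19% of all tested genes showed upward and 6.84% downward. Wildtype GATA1 against the same empty vector libraries gave calls in 2323 genes (23.3%).

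The number of calls depended on single libraries. It was 6 higher and 2 lower without empty vector library 1, 5 and 2 without empty vector library 2, and 227 and 610 without empty vector library 3. Leaving out mutant libraries 1, 2 or 3 gave 10 and 3, 8 and 2, and 12 and 2, and leaving out wildtype library 3 gave 28 and 11. With mutant libraries 1 and 2 summed into 1, 9 and 2 genes were called. DESeq2 called 58 and 37, and a fit with offsets for transcript length and GC content called 37 and 16, of which 23 were among the 27 (Hba-a2, Ubald1, Mns1 and Ms4a2 were not). Of the 27 calls, 26 remained with DESeq2, 22 with limma-voom, 19 with a filter of 5 CPM in 3 libraries and 11 with mutant libraries 1 and 2 summed. Prg3, Prelp, Spon2, Cysrt1, Ms4a2 and Rnf224 were below 5 CPM in every library, so that filter left them untested. Slc4a1, Hbb-bs, Hbb-bh1, Alas2, Aqp3, Cpa3 and Tec were called under all 20 alternatives, with adjusted p no higher than 0.0215.

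**Figure D1:**
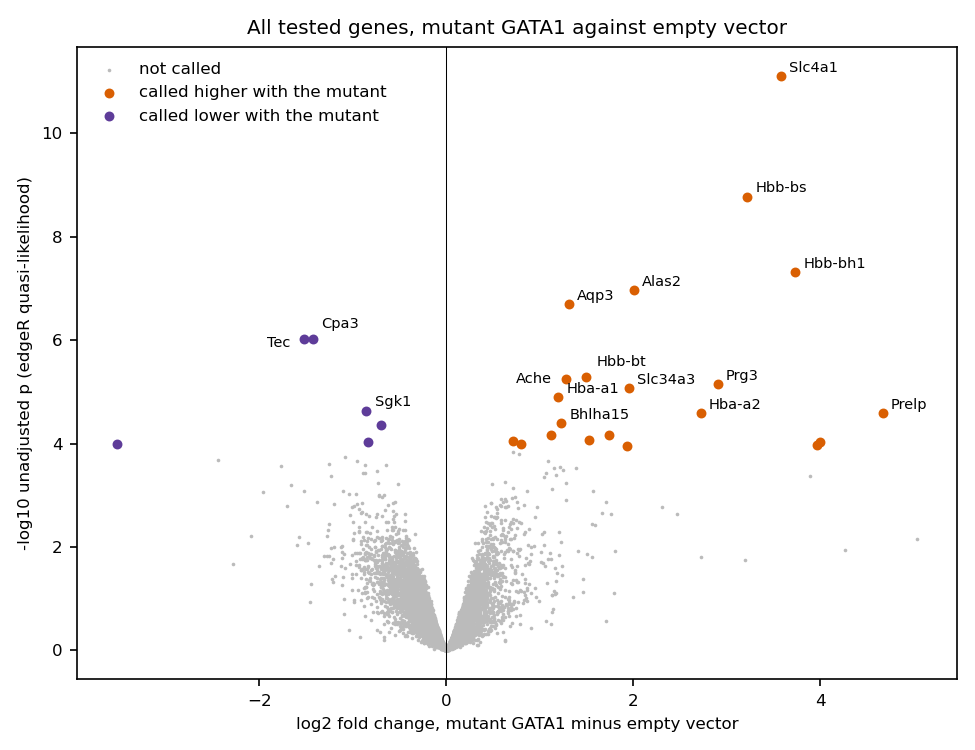
Each point is 1 of 9978 tested genes; the horizontal axis gives the log2 fold change of mutant GATA1 over empty vector and the vertical axis the unadjusted p of edgeR's quasi-likelihood test as a negative log10. The 21 genes called higher are orange, the 6 called lower purple and the uncalled genes grey, with Slc4a1, Hbb-bs and Hbb-bh1 at the top. The called genes with the largest p lie next to uncalled genes, without a gap.

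Slc4a1 encodes band 3, the chloride and bicarbonate exchanger that anchors the red cell membrane to its skeleton. It lies on the minus strand at chr11:102348824-102366203 (GRCm38). Its level was 187.7, 220.7 and 193 CPM in mutant libraries 1 to 3, and 14.8, 16.5 and 18.9 CPM in empty vector libraries 1 to 3. The lowest mutant library was far above the highest empty vector library. The log2 fold change was 3.58 (SE 0.15, adjusted p = 7.65e-08), or 12-fold. Under wildtype GATA1 the mean was 1441 ± 216.2 CPM (SD, n = 3), so the mutant mean of 200.4 ± 17.7 was 13.9% of it, and the difference between the forms was -2.85 (SE 0.14, adjusted p = 3.86e-08).

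The globin genes encode the chains of hemoglobin and sit in a beta-type cluster on chromosome 7 and an alpha-type cluster on chromosome 11. Of 9 tested, 6 were called higher and none lower, where 0.21% and 0.0601% of all tested genes were. Their median log2 fold change was 2.72, or 2.03 with Hba-x, which had no counts with the empty vector, set at its lower bound, against -0.00052 over all tested genes. The count of called globin genes was 3 without empty vector library 1, without mutant library 2 or with mutant libraries 1 and 2 summed, and 2 without empty vector library 2. Over all genes those fits called 6, 8, 9 and 5 higher, in that order.

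Hbb-bs, an adult beta-globin gene (minus strand, chr7:103826534-103828096), stood at 691.6, 721.4 and 725.6 CPM in mutant libraries 1 to 3 and at 85.8, 64.7 and 79.6 CPM in empty vector libraries 1 to 3. The mutant libraries were tightly grouped and every one was above every empty vector library. The log2 fold change was 3.22 (SE 0.21, adjusted p = 8.34e-06), or 9.3-fold. With wildtype GATA1 the same gene reached 17580, 21400 and 11090 CPM, and the mutant libraries averaged 4.27% of that. Hbb-bt, the other adult beta gene, was at 102.3, 101 and 87 CPM with the mutant and at 47.8, 28.5 and 27 with the empty vector. Empty vector library 1 was the highest of its group but still below all mutant libraries. The log2 fold change of Hbb-bt was 1.49 (SE 0.20, adjusted p = 0.00629), and its call was lost without empty vector library 2 (adjusted p = 0.0657).

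The embryonic beta-type genes rose as well. Hbb-bh1 was at 15.3, 15 and 14.2 CPM with the mutant and at 1.39, 0.979 and 0.966 CPM with the empty vector, a log2 fold change of 3.73 (SE 0.33, adjusted p = 0.000161). Hbb-y had 60 counts over the 3 mutant libraries and 3 over the 3 empty vector libraries. That is a ratio of 17.5 with an exact 95% counting interval of 5.71 to 87.2, at an adjusted p of 0.0403 that passed the threshold under 11 of the 20 alternatives. It was lost without any one of mutant libraries 1, 2 or 3, wildtype library 2 or empty vector libraries 1 or 2 (adjusted p up to 0.209). Hbb-bh2 had no counts in any mutant or empty vector library and a mean of 1.21 CPM with wildtype GATA1.

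Among the alpha-type genes, Hba-a1 was at 399.3, 405.3 and 322.3 CPM with the mutant and at 154, 157.6 and 179 CPM with the empty vector. Hba-a2 was at 24.1, 25.2 and 16.4 CPM with the mutant and at 2.71, 2.59 and 4.57 CPM with the empty vector. In both genes the groups were separate, with mutant library 3 the lowest of its group and empty vector library 3 the highest of its group. The log2 fold changes were 1.20 (SE 0.18, adjusted p = 0.0105) and 2.72 (SE 0.43, adjusted p = 0.0171). Both calls were lost without mutant library 2 or without empty vector library 1 or 2, that of Hba-a1 also without mutant library 1, and that of Hba-a2 also with GC offsets or limma-voom (adjusted p up to 0.106 and 0.182). Hba-a1 and Hba-a2 are near-identical copies, as are much of Hbb-bs and Hbb-bt, and the sources used here do not say how the counting split reads between copies, so the separate values of each pair are uncertain.

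Of the minor alpha-type genes, Hbq1b was at 5.2, 5.55 and 5.71 CPM with the mutant and at 2.42, 2.8 and 2.64 with the empty vector (log2 fold change 1.06, SE 0.22, adjusted p = 0.0832, not called). The embryonic gene Hba-x had 14 counts over the mutant libraries and 0 over the empty vector libraries, at least 4.08-fold higher against 3 counts over the group, and was not called (adjusted p = 0.303). All tested globin genes were below their wildtype level in the test of mutant against wildtype GATA1.

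Alas2, the erythroid form of the enzyme that starts heme synthesis (plus strand, chrX:150547375-150570638), was at 25.4, 31.2 and 27.5 CPM with the mutant and at 7.92, 6.22 and 6.76 CPM with the empty vector. The groups were well separated. The log2 fold change was 2.01 (SE 0.19, adjusted p = 0.000271), a 4.03-fold rise, and the wildtype mean was 615 ± 145.6 CPM (SD, n = 3), of which the mutant reached 4.56%. It was the 1 member called among 18 tested genes of heme synthesis, whose median log2 fold change was 0.17. The mitochondrial transporter Abcb10 and the second enzyme of the pathway, Alad, had values of 0.49 (adjusted p = 0.112) and 0.52 (adjusted p = 0.269), and the last enzyme, Fech, 0.061 (adjusted p = 0.833). With wildtype GATA1 12 of the 18 were called higher, where 11.4% of all tested genes were.

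Aqp3, a channel for water and glycerol (minus strand, chr4:41092722-41098183), was at 21.2, 19.8 and 22 CPM with the mutant and at 7.92, 8.04 and 9.33 CPM with the empty vector. Its spread within groups was small beside the gap between them, and its log2 fold change was 1.31 (SE 0.13, adjusted p = 0.000404). It was the 1 member called among 20 tested red cell channels, transporters and carbonic anhydrases (median 0.049). Ache, the enzyme that splits acetylcholine and is carried on red cells, was at 22.1, 21.8 and 21.6 CPM with the mutant and at 8.58, 8.11 and 10.2 with the empty vector. The log2 fold change of Ache was 1.28 (SE 0.17, adjusted p = 0.00629), and the call was lost without empty vector library 1 (adjusted p = 0.0538) or 2 (0.0711). Wildtype libraries held 33.2, 22.1 and 25.4 CPM of Ache, and the mutant minus wildtype difference was -0.30 (95% interval -0.66 to 0.056, adjusted p = 0.197).

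Crat, a mitochondrial and peroxisomal carnitine acetyltransferase, rose from 31.2, 34 and 44.2 CPM with the empty vector to 69.3, 65.2 and 56.4 CPM with the mutant (log2 fold change 0.80, SE 0.14, adjusted p = 0.0403). Pdzk1ip1, a small membrane protein gene next to Tal1, rose from 1.03, 0.769 and 0.901 to 2.88, 2.59 and 2.34 CPM (1.53, SE 0.27, adjusted p = 0.0403). Prelp, a proteoglycan of the extracellular matrix, had 40 counts over the mutant libraries against 1 over the empty vector libraries. That is a ratio of 35 with an exact 95% counting interval of 5.93 to 1417 (adjusted p = 0.0171). Crat and Pdzk1ip1 lost their calls without mutant library 1, 2 or 3 or empty vector library 1 or 2, Crat also without wildtype library 1 or 2 and Pdzk1ip1 without wildtype library 2. Prelp lost its call without mutant library 1 or 2 or empty vector library 1 or 2. The adjusted p over all alternatives reached 0.241 for Crat, 0.224 for Pdzk1ip1 and 0.132 for Prelp.

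**Figure D2:**
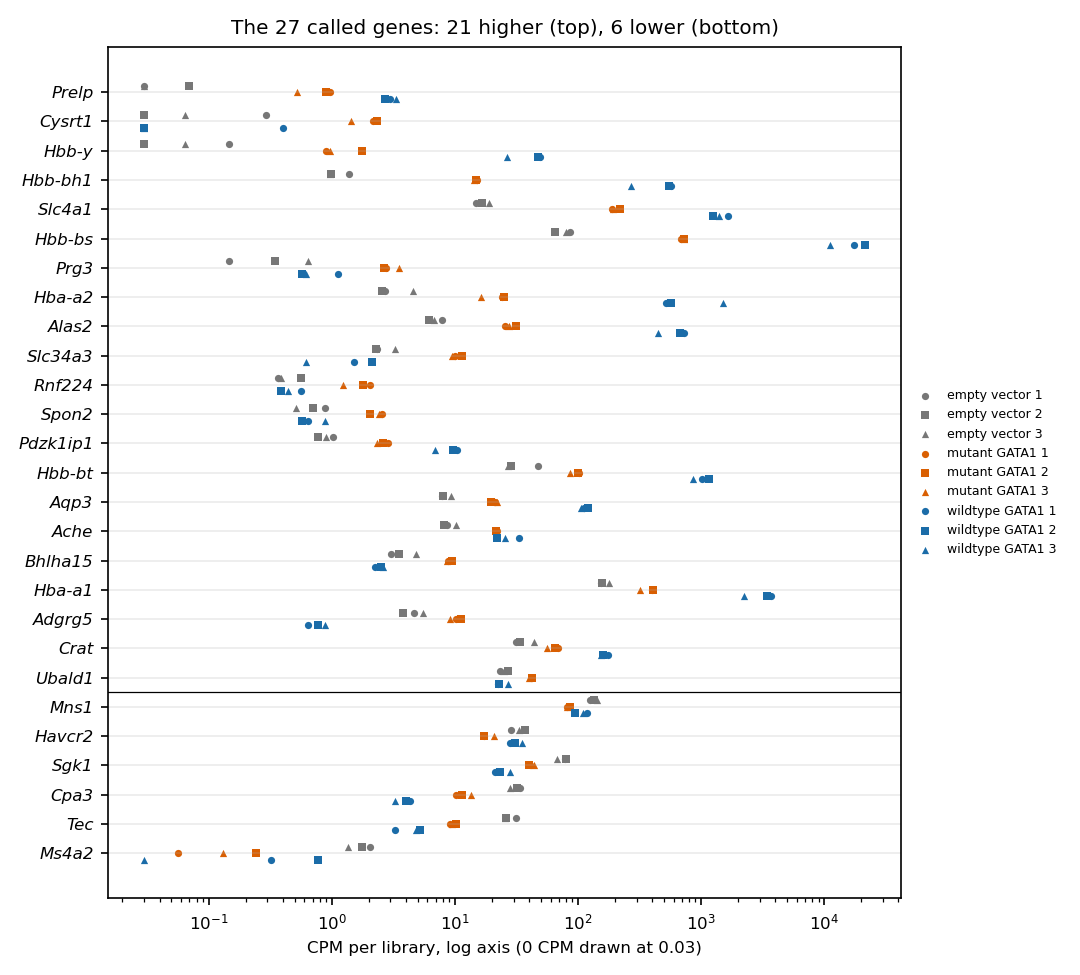
Each row is 1 of the 27 called genes and each symbol 1 library, with CPM on a log axis (0 CPM drawn at 0.03), empty vector in grey, mutant in orange and wildtype in blue. In every row the 3 orange symbols lie on one side of the 3 grey ones, and for the globins, Slc4a1 and Alas2 the blue symbols lie far to the right of both.

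For a view of the control regions of the genes with the clearest changes, the 250 bases upstream of the start in the RefSeq promoter table (GRCm38.p6) are shown for Hbb-bs (minus strand, chr7:103827929-103828178), Alas2 (plus strand, chrX:150547167-150547416) and Aqp3 (minus strand, chr4:41098184-41098433). Capitals mark every match to the motif AGATAA, to the variant TGATAA with another first letter, to the variant AGATAG with another last letter, or to the variant TGATAG with both changed. Both strands were searched, and a match on the other strand appears as the reverse complement, as TTATCT does for the first of these motifs. The motifs share the core GATA, and no printed matches overlap. Each sequence is written 5′ to 3′ on the gene's strand.
Hbb-bs: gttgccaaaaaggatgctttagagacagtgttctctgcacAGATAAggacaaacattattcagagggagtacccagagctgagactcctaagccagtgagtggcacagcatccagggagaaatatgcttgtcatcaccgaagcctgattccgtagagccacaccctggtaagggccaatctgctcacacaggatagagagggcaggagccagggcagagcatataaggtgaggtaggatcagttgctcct
Alas2: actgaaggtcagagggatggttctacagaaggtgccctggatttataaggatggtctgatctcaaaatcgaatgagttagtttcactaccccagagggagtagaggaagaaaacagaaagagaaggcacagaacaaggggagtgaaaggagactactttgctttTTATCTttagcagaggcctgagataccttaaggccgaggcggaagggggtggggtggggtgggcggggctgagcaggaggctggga
Aqp3: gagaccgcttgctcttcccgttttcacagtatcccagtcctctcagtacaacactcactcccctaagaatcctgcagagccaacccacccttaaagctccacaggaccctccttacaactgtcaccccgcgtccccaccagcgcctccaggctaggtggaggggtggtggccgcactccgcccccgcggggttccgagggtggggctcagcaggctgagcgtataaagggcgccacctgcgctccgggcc
Hbb-bs held AGATAA with its first base 210 bases upstream of the start, Alas2 held the same motif on the other strand at 86 bases, and Aqp3 held none in this window. Slc4a1, Hbb-bh1, Spon2 and Crat have no entry in the table, and Sgk1 has 6. Of the 22 called genes with 1 promoter there, 11 (50%) held a match, against 17.2% of 9670 promoters of tested genes and 26.5% of all 32851 promoters of the table. The latter shares also count genes with several promoters, so the sets are not alike. The 11 include Hba-a1 and Hba-a2, whose windows are near-identical. The matches were in 8 of 17 genes called higher and 3 of 5 called lower. A match is a string of letters, and binding was not measured.

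Of 24 tested genes of the red cell membrane and skeleton, Slc4a1 was the 1 called, the median log2 fold change was 0.29, and 13 were higher and 1 lower at an unadjusted p under 0.05, where 5% and 7.87% of all tested genes were. Among those nearest to a call were Tmcc2 at 0.78 (adjusted p = 0.056), Dmtn at 1.71 (SE 0.42, adjusted p = 0.17) and the tropomodulin gene Tmod1 at 0.75 (adjusted p = 0.17). Dmtn, the actin-bundling protein dematin, was at 1.36, 1.63 and 0.649 CPM with the mutant and at 0.367, 0.28 and 0.451 CPM with the empty vector, without overlap. The beta-spectrin gene Sptb had a value of 0.64 (adjusted p = 0.173) and the ankyrin gene Ank1 0.70 (adjusted p = 0.236). With wildtype GATA1 19 of the 24 were called higher. DESeq2 called 5 higher, and without empty vector library 3 edgeR called 8 higher and 1 lower. Over all 10089 genes tested in that fit, 227 were called higher and 610 lower.

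Among 20 tested genes of iron handling none was called with edgeR or limma-voom, and DESeq2 called 1 higher. At an unadjusted p under 0.05, 6 were higher and none lower, where 5% and 7.87% of all tested genes were. The median was 0.21. The mitochondrial iron importer Slc25a37 stood at 0.58 (adjusted p = 0.167), and at 0.53 with length and GC offsets, where it was called higher (adjusted p = 0.0213) as the 1 call of the list. The transferrin receptor Tfrc stood at -0.19 (adjusted p = 0.665). Without empty vector library 3, 4 genes of iron handling were called higher, as were 227 of all 10089 genes tested in that fit.

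The erythroid transcription factors and their cofactors also held no call among 25 tested. At an unadjusted p under 0.05, 10 were higher and 1 lower, where 5% and 7.87% of all tested genes were. DESeq2 called 1 higher and limma-voom none, and the median was 0.25. Klf1, which drives beta-globin, was at 0.39 (95% interval 0.12 to 0.65, adjusted p = 0.303), Tal1 at 0.44 (0.19 to 0.68, adjusted p = 0.196), Gfi1b at 0.28 (0.0067 to 0.54, adjusted p = 0.385) and Zfpm1 at 0.35 (-0.12 to 0.83, adjusted p = 0.488). Without empty vector library 3, 3 were called higher and 1 lower, as were 227 and 610 of all 10089 genes tested in that fit. The same lists had positive medians between empty vector libraries 3 and 1, at 0.14 for the transcription factors, 0.16 for iron handling and 0.23 for the membrane genes. With length and GC offsets the medians between mutant and empty vector were 0.11 for the transcription factors, 0.16 for iron handling and 0.40 for the membrane genes.

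The textbook repression targets did not pass the test with the mutant. Gata2, the factor that GATA1 replaces at its own gene, was at 287.9, 279.5 and 290 CPM with the mutant and at 283, 385.2 and 314.4 CPM with the empty vector. The groups overlapped, with a log2 difference of -0.20 (95% interval -0.49 to 0.098, adjusted p = 0.526). Wildtype libraries held 107.5, 86.8 and 114.1 CPM, and the mutant was above the wildtype by 1.48 (SE 0.14, adjusted p = 1.04e-05). Kit, the receptor for SCF, was at 599.4, 560.2 and 646.9 CPM with the mutant and at 590.4, 670.4 and 721.8 CPM with the empty vector. These groups overlapped too, with a difference of -0.13 (-0.38 to 0.11, adjusted p = 0.598), and Kit was above its wildtype level by 1.28 (SE 0.12, adjusted p = 6.80e-06). Myc (0.098, -0.18 to 0.38) and Spi1 (0.044, -0.24 to 0.33) were not called either, and both changed sign under some alternatives. With wildtype GATA1 against the empty vector, Myc was called lower (-0.53, adjusted p = 0.01045). Spi1 was not called with wildtype GATA1 either (0.25, adjusted p = 0.2065).

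Stem and progenitor regulators as a list held no call among 14 tested, with a median of -0.18. At an unadjusted p under 0.05 none was higher and 3 were lower, where 5% and 7.87% of all tested genes were. The 3 were Hhex (-0.43, adjusted p = 0.303), Rgs18 (-0.84, 0.355) and Bmi1 (-0.52, 0.364). Neither DESeq2 nor limma-voom called any member of the list. Without empty vector library 3, 3 were called lower, as were 610 of all 10089 genes tested in that fit. With wildtype GATA1 8 of the 14 were called lower, where 11.9% of all tested genes were.

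Cpa3 and Tec gave the firmest falls. Cpa3, a protease of mast cell granules (minus strand, chr3:20215620-20242181), was at 10.2, 11.4 and 13.4 CPM with the mutant and at 34, 32 and 28.1 CPM with the empty vector. Tec, a cytoplasmic tyrosine kinase of blood cells (minus strand, chr5:72755716-72868483), was at 9.21, 10.2 and 9.55 CPM with the mutant and at 31.3, 26.1 and 25.8 CPM with the empty vector. In both genes all mutant libraries were well below all empty vector libraries. Cpa3 fell by 1.43 on the log2 scale (SE 0.16) and Tec fell by 1.52 (SE 0.17), each with an adjusted p of 0.00134. Wildtype levels were lower still, at 3.87 ± 0.56 and 4.44 ± 1.02 CPM (SD, n = 3), and the mutant was above the wildtype by 1.59 for Cpa3 (adjusted p = 5.64e-05) and by 1.13 for Tec (adjusted p = 0.0011).

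Txk, a kinase of the same family whose gene lies 2938 bases from Tec, had 7 counts over the mutant libraries and 35 over the empty vector libraries (-2.44, SE 0.48, adjusted p = 0.0666, not called). Of 14 tested genes of TEC kinase and antigen receptor signalling, a list that did not include Txk, Tec was the 1 called, and the median was 0.0062. The adaptor Lat stood at -0.90 (adjusted p = 0.196) and the adaptor Grap2 at 0.97 (adjusted p = 0.173).

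Ms4a2, the beta chain of the high-affinity IgE receptor of mast cells, had 7 counts over the mutant libraries and 74 over the empty vector libraries. Per library this was 0.057, 0.24 and 0.13 CPM against 2.05, 1.75 and 1.35. It fell by 3.52 on the log2 scale (SE 0.64, adjusted p = 0.0403), from a level close to the floor. Its difference from wildtype was -1.27 (95% interval -3.16 to 0.63, adjusted p = 0.305). Its call was lost under 11 of the 19 alternatives that tested it, among them leaving out mutant library 1, 2 or 3, wildtype library 1 or empty vector library 1 or 2, and the fit with length and GC offsets (adjusted p = 0.0598). The adjusted p reached 0.261.

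Of 10 tested mast cell and basophil genes 2 were called lower, where 0.0601% of all tested genes were, and the median was -0.79. At an unadjusted p under 0.05 none was higher and 6 were lower, where 5% and 7.87% of all tested genes were. The 6 were the 2 called, the granule protease Gzmb (-1.23, adjusted p = 0.0879), Cd200r3 (-1.38, 0.17), the IL-33 receptor Il1rl1 (-0.57, 0.17) and the granule proteoglycan Srgn (-1.01, 0.173). The histamine enzyme Hdc was at 0.36 (adjusted p = 0.761) and the serotonin enzyme Tph1 at 0.32 (0.475). The count was 1 without mutant library 2 or 3, wildtype library 1 or empty vector library 1 or 2, and with offsets or limma-voom, whereas DESeq2 called 5 lower and edgeR without empty vector library 3 called 6. Over all genes, DESeq2 called 37 lower and edgeR without empty vector library 3 called 610. The summed level of 7 mast cell and basophil markers was 76.6 to 84.1 CPM in the mutant and 112.3 to 149.4 CPM in the empty vector libraries, most of it from Il1rl1. The basophil protease Mcpt8 and the mast cell protease Tpsb2 were at 0 in all libraries. In bulk samples, fewer cells of a type and less RNA per cell cannot be told apart.

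Megakaryocyte and platelet genes had a median of -0.32 over 10 tested, with no call by edgeR or limma-voom and 1 lower by DESeq2. At an unadjusted p under 0.05 none was higher and 4 were lower, where 5% and 7.87% of all tested genes were. Pf4, the platelet chemokine of alpha granules, was at 14.3, 12.8 and 11.6 CPM with the mutant and at 28.8, 26.7 and 19.4 CPM with the empty vector, without overlap (-0.95, SE 0.19, adjusted p = 0.0666). It was called with offsets for length and GC content. The granule transport gene Rab27b stood at -0.96 (adjusted p = 0.147) and the integrin Itgb3 at -0.67 (adjusted p = 0.343). The 5 markers of this lineage summed to 39.4 to 45.5 CPM with the mutant and 53.9 to 60.9 CPM with the empty vector.

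For comparison with the erythroid promoters above, the 250 bases upstream of the start are shown for Cpa3 (minus strand, chr3:20242182-20242431), Ms4a2 (minus strand, chr19:11623720-11623969) and Tec (minus strand, chr5:72868449-72868698) from the same RefSeq table, with capitals as before.
Cpa3: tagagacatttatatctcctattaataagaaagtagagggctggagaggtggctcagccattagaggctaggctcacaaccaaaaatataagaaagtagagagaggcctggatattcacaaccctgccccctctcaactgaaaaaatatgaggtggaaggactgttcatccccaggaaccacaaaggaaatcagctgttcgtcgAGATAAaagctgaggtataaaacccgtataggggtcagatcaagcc
Ms4a2: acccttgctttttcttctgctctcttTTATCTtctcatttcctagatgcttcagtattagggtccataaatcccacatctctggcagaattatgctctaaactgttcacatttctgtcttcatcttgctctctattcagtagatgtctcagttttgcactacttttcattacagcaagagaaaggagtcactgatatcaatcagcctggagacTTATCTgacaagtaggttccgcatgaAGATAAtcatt
Tec: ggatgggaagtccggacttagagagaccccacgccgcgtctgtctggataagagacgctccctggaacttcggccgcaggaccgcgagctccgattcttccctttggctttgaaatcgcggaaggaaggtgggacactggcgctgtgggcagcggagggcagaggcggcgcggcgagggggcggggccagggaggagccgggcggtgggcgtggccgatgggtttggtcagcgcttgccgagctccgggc
Cpa3 held 1 match, AGATAA at 46 bases upstream. Ms4a2 held 3, at 11, 37 and 224 bases upstream, the latter pair on the other strand. Tec held none, so the genes called higher and lower both included promoters with and without these letters.

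Sgk1, Mns1 and Havcr2 fell by less than 1 on the log2 scale. Sgk1, a kinase induced by serum and glucocorticoids, was at 40.5, 39.9 and 44.2 CPM with the mutant and at 77.8, 79.3 and 67.9 CPM with the empty vector, and fell by 0.85 (SE 0.13, adjusted p = 0.0171). Wildtype libraries were lower again at 24.1 ± 3.42 CPM (SD, n = 3). Havcr2, the T cell and mast cell receptor TIM-3, was at 17.3, 17.2 and 20.8 CPM with the mutant and at 28.8, 37.2 and 33 CPM with the empty vector, and fell by 0.84 (SE 0.15, adjusted p = 0.0403).

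Mns1, a structural gene of meiosis and cilia, was at 81.9, 86.2 and 80.8 CPM with the mutant and at 125, 135.3 and 142.8 CPM with the empty vector, and fell by 0.70 (SE 0.12, adjusted p = 0.0262). Against wildtype GATA1 the mutant was lower for both Havcr2 (-0.76, SE 0.15, adjusted p = 0.00306) and Mns1 (-0.38, SE 0.12, adjusted p = 0.0284). All 3 lost their calls without mutant library 1, 2 or 3 or empty vector library 1 or 2, Mns1 and Havcr2 also without wildtype library 1, and Havcr2 without wildtype library 2. Mns1 was also not called with length and GC offsets (-0.54, adjusted p = 0.119). The adjusted p reached 0.157 for Sgk1, 0.215 for Mns1 and 0.276 for Havcr2.

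The 27 genes were then set against wildtype GATA1, from which 25 of them were called different in the mutant, as were 25.9% of all tested genes. With the replicate number as a block 24 were, Mns1 no longer among them (-0.38, adjusted p = 0.0663). Over all tested genes the fit with the block called 1054 higher and 1001 lower, against 1313 and 1267 without it. The mutant libraries enter both tests, and the genes were picked for their mutant level, so the tests are not independent. Of the 21 genes called higher, 12 were below their wildtype level (12.7% of all tested genes were called lower in that comparison), 8 were above it (13.2%), and Ache did not pass the test. Of the 6 called lower, Cpa3, Tec and Sgk1 were above the wildtype level, Mns1 and Havcr2 were below it, and Ms4a2 did not pass. The 12 were the 6 globins, Slc4a1, Alas2, Aqp3, Crat, Pdzk1ip1 and Prelp, at 2.52% (Hba-a2) to 39.1% (Crat) of the mean that wildtype GATA1 gave. Hba-a2 was at 520.3, 567.8 and 1519 CPM in wildtype libraries 1 to 3, so its mean leans on 1 library, and its split from Hba-a1 is uncertain. The next lowest share was that of Hbb-y at 2.94%. The human GATA1 count of the mutant libraries was 79.8% of that of the wildtype libraries.

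**Figure D3:**
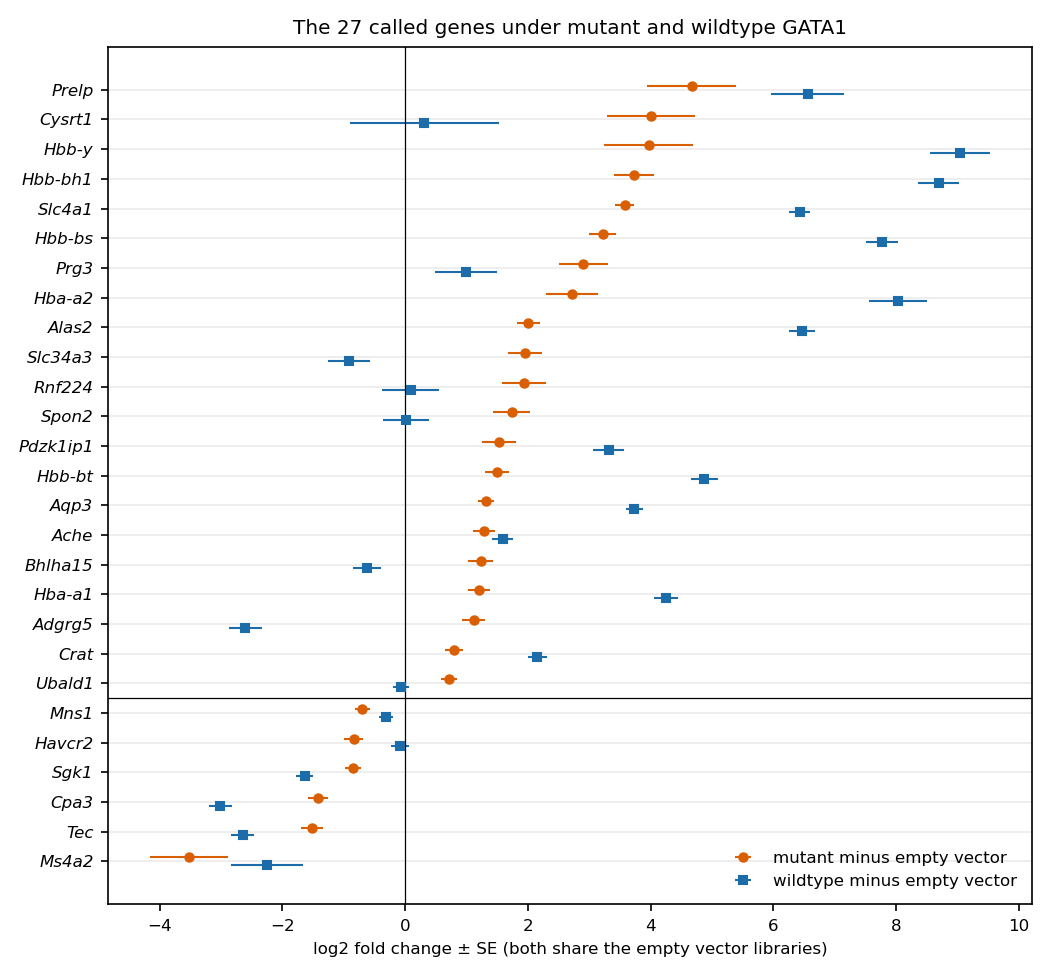
For each of the 27 called genes, the log2 fold change ± SE over empty vector is drawn for mutant GATA1 (orange circles) and wildtype GATA1 (blue squares), which share the empty vector libraries. For 12 of the 21 genes called higher the blue square lies well to the right of the orange circle, and for Prg3, Slc34a3, Bhlha15, Spon2, Adgrg5, Ubald1, Cysrt1 and Rnf224 it lies to the left.

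The 8 genes that were higher with the mutant than with either the empty vector or the wildtype factor were of mixed function. Adgrg5, an adhesion G protein-coupled receptor, was at 10.2, 11.2 and 9.09 CPM with the mutant, at 4.69, 3.77 and 5.54 with the empty vector and at 0.64, 0.77 and 0.878 with the wildtype. The 3 groups did not overlap, with the wildtype lowest and the mutant highest. The log2 fold change over empty vector was 1.12 (SE 0.19, adjusted p = 0.0359) with the mutant and -2.61 (SE 0.27, adjusted p = 1.58e-05) with the wildtype, and the forms differed by 3.72 (SE 0.25, adjusted p = 5.07e-07).

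Prg3, which encodes an eosinophil granule protein, was at 2.77, 2.65 and 3.51 CPM with the mutant, at 0.147, 0.35 and 0.644 with the empty vector and at 1.12, 0.578 and 0.615 with the wildtype. Its log2 fold change over empty vector was 2.90 (SE 0.40, adjusted p = 0.00716) with the mutant and 0.99 (SE 0.50, adjusted p = 0.173) with the wildtype. Prg3 had 147 counts over the mutant libraries and 17 over the empty vector libraries. Its level in empty vector library 1 was below the floor of that library, 0.22 CPM. The neighbouring granule gene Prg2 had 8 counts over the mutant libraries and 0 over the empty vector libraries, at least 2.33-fold higher against 3 counts over the group, and was not called (adjusted p = 0.333). Unlike Prg3, Prg2 was below its wildtype level, at a mean of 0.159 CPM against 2.65 (difference -3.98, adjusted p = 0.000171). The Prg3 call was lost without empty vector library 1 (adjusted p = 0.0538) or 2 (0.0711).

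Bhlha15, the transcription factor MIST1 of secretory cells, rose from 3.01, 3.49 and 4.83 to 8.76, 9.4 and 8.57 CPM (1.23, SE 0.20, adjusted p = 0.0249). Spon2, a secreted matrix protein, rose from 0.88, 0.699 and 0.515 to 2.54, 2.05 and 2.4 CPM (1.74, SE 0.30, adjusted p = 0.0359). Ubald1 rose from 23.3, 26.8 and 25.3 to 41.5, 42.1 and 40.3 CPM (0.72, SE 0.13, adjusted p = 0.0403). None of these groups overlapped, and the wildtype means of 2.46, 0.699 and 24.1 CPM lay within or below the range of the empty vector libraries. The calls of Bhlha15, Spon2, Adgrg5 and Ubald1 were lost without mutant library 1, 2 or 3 or empty vector library 1 or 2, that of Ubald1 also without wildtype library 1 and with GC offsets, and the adjusted p reached 0.258.

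Granulocyte and monocyte genes were looked at beside these. Of 7 tested none was called with edgeR, DESeq2 or limma-voom, and the median was 0.55. At an unadjusted p under 0.05, 3 were higher and 1 lower, where 5% and 7.87% of all tested genes were. Cebpe, a granulocyte transcription factor, was at 2.26, 2.35 and 1.95 CPM with the mutant and at 0.734, 0.979 and 0.773 with the empty vector (1.39, SE 0.28, adjusted p = 0.0741). Ncf1, a subunit of the phagocyte oxidase, stood at 1.28 (adjusted p = 0.17) and the peroxidase gene Mpo at 2.31 with 47 counts over the mutant libraries and 8 over the empty vector libraries (adjusted p = 0.173). The Fc receptor Fcgr3 went the other way at -0.95 (adjusted p = 0.171). The 5 markers of these cells summed to 2.05 to 2.73 CPM with the mutant and 0.909 to 1.93 with the empty vector, with Elane at 0 in all libraries, and 5 lymphoid markers summed to at most 0.0649 and 0.258 CPM. Without empty vector library 3, 2 of the 7 genes were called higher, as were 227 of all 10089 genes tested in that fit.

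Slc34a3, Rnf224 and Cysrt1 were neighbours on chromosome 2, which was seen after their values were known. Slc34a3, a sodium-dependent phosphate transporter known from the kidney (minus strand, chr2:25228898-25234364), was at 10, 11.5 and 9.55 CPM with the mutant, at 2.35, 2.31 and 3.28 with the empty vector and at 1.52, 2.12 and 0.615 with the wildtype. The mutant libraries stood above both other groups. Its log2 fold change over empty vector was 1.96 (SE 0.27, adjusted p = 0.00757) with the mutant and -0.91 (SE 0.34, adjusted p = 0.0702) with the wildtype.

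Rnf224, a RING finger gene (minus strand, chr2:25234476-25236787) that starts 2.42 kb from the start of Slc34a3, was at 2.04, 1.81 and 1.23 CPM with the mutant and at 0.367, 0.559 and 0.386 with the empty vector (1.94, SE 0.35, adjusted p = 0.0415). Cysrt1, a cysteine-rich protein gene (minus strand, chr2:25238818-25242452), was at 2.15, 2.35 and 1.43 CPM with the mutant, and had 99 counts there against 5 over the empty vector libraries (16.1-fold, adjusted p = 0.0403). Cysrt1 overlaps Rnf208 on the plus strand (chr2:25242255-25244262), which stood at 1.18 (SE 0.25, adjusted p = 0.0879, not called). The library method keeps no strand, so reads from the overlap cannot be told apart. The next tested genes on either side, Tubb4b (0.11, adjusted p = 0.744) and Tmem203 (0.10, adjusted p = 0.881), were not called. The calls of Slc34a3 were lost without mutant library 2 or empty vector library 1 or 2 (adjusted p up to 0.0852), and those of Rnf224 and Cysrt1 without mutant library 1, 2 or 3 or empty vector library 1 or 2 (up to 0.287 and 0.219), that of Rnf224 also without wildtype library 1 or 2, with DESeq2 and with limma-voom.

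**Figure D4:**
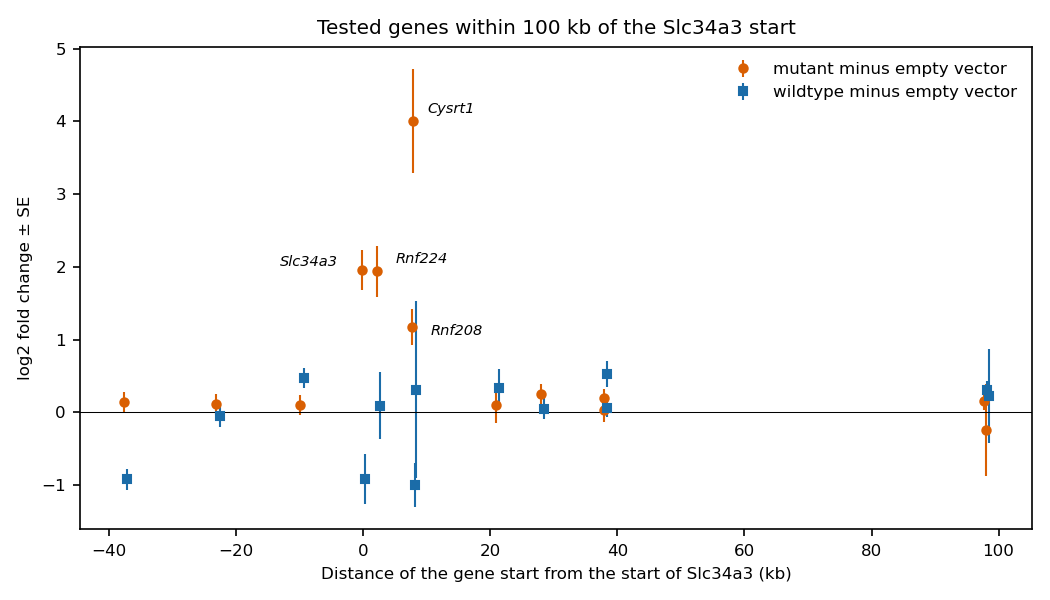
Log2 fold changes ± SE over empty vector of the tested genes within 100 kb of the start of Slc34a3 are plotted against the distance of each gene's start from it in kb, for mutant (orange circles) and wildtype GATA1 (blue squares). Slc34a3, Rnf224, Cysrt1 and Rnf208 lie above 1 with the mutant, and all other genes in the window lie within 0.25 of 0.

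The upstream 250 bases of the adjoining genes Slc34a3 (minus strand, chr2:25234235-25234484) and Rnf224 (minus strand, chr2:25236788-25237037) are shown from the RefSeq table, since both rose with the mutant and were below that level with the wildtype.
Slc34a3: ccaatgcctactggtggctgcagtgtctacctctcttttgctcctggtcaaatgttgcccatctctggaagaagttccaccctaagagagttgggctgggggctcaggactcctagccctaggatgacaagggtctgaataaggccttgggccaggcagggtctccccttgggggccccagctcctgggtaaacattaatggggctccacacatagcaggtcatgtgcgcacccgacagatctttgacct
Rnf224: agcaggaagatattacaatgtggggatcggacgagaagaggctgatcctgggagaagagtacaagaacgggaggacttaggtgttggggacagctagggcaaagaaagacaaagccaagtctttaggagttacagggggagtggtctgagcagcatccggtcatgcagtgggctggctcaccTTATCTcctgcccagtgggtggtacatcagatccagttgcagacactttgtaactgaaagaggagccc
Slc34a3 held no match to the motifs and Rnf224 held 1, AGATAA on the other strand at 68 bases upstream. Over all 27 called genes, 9 had another called gene whose body lay within 50 kb, namely 4 beta-type globins, 2 alpha-type globins and these 3, and the 51 tested neighbours of called genes included those 9 as the only called ones.

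Other neighbours were not called. Next to Adgrg5, Ccdc102a stood at 0.59 (SE 0.16, adjusted p = 0.236) with the mutant and at -1.13 (adjusted p = 0.000453) with the wildtype.

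The next 10 genes in order of p, leaving out provisional names made of Gm and a number, were not called. Agpat4, an acyltransferase of phospholipid synthesis, was at 51, 54.4 and 48.6 CPM with the mutant and at 28.2, 32 and 33.5 with the empty vector (0.72, SE 0.13, adjusted p = 0.0515), and its difference from wildtype was -0.042 (adjusted p = 0.843). Fgl2 (-1.26, adjusted p = 0.0722), Npl (-0.64, 0.0722), Fam49b (-0.87, 0.0722), Ccdc186 (-1.08, 0.0617) and Cd200r4 (-1.77, 0.0741) were lower, and the immediate early factor Jun higher (1.22, 0.0741), each below or above the empty vector libraries without overlap. Tmcc2, Txk and Pf4 are given above. With length and GC offsets, Agpat4 was called higher (0.65, adjusted p = 0.0039), and Npl (-0.52, 0.0111), Fam49b (-0.52, 0.0499), Ccdc186 (-0.95, 0.0369) and Pf4 (-0.96, 0.0111) were called lower.

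The remaining lists held no call with edgeR. For the counts below, 5% of all tested genes were higher and 7.87% lower at an unadjusted p under 0.05. Signalling by erythropoietin and stem cell factor had a median of 0.12 over 24 tested genes, with 2 higher and 3 lower at an unadjusted p under 0.05. The feedback inhibitors Cish and Socs2 stood at 0.34 (adjusted p = 0.314) and -0.33 (0.333). Genes of cell cycle arrest had a median of -0.11 over 17 tested genes, with none higher and 3 lower, among them Ccng2 at -1.25 (adjusted p = 0.243). Genes of the G1, S and mitotic cell cycle had 0.036 over 33 (2 higher, 2 lower), and autophagy and mitochondrial clearance 0.071 over 25 (1 higher, 3 lower). Survival and death had a median of -0.053 over 16 (0 higher, 1 lower), stress and immediate early genes 0.084 over 17 (4 higher, 2 lower), the interferon response 0.22 over 11 (3 higher, 0 lower) and lymphoid genes -0.40 over 2 (0 higher, 1 lower). Cholesterol and lipid synthesis had a median of -0.003 over 20, with none higher and 4 lower, among them Hmgcs1 at -0.44 (adjusted p = 0.333). DESeq2 called 1 gene of cell cycle arrest lower and none in the other 8 of these lists, and limma-voom called none in any. Without empty vector library 3, edgeR called up to 4 members lower (cell cycle arrest) and up to 1 higher. Over all 10089 genes that fit called 610 lower and 227 higher.

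**Figure D5:**
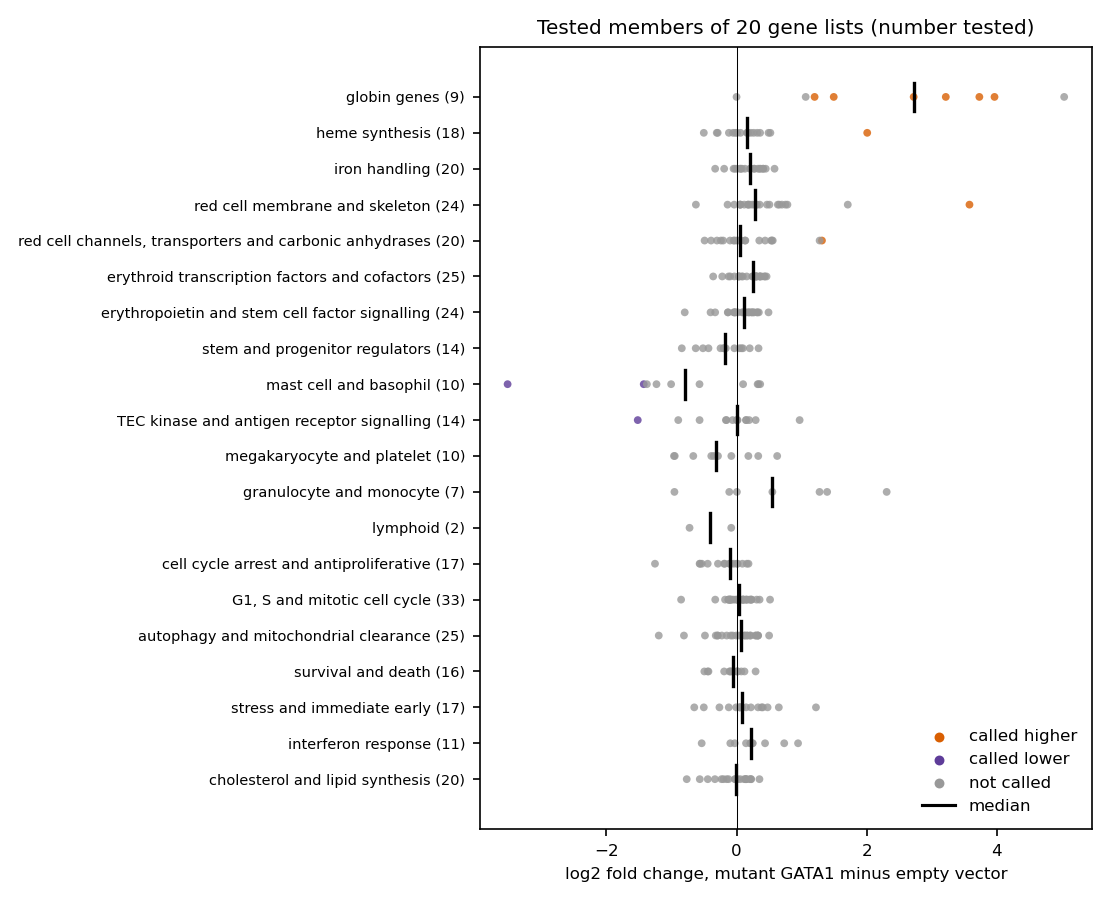
Each point is a tested member of 1 of 20 gene lists (number tested in brackets) at its log2 fold change of mutant GATA1 over empty vector, with called members in colour and the list median as a black bar. The globin genes lie furthest to the right, the mast cell genes have the lowest median at -0.79, and the globin point past 5 is Hba-x, a fitted value against 0 counts.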

How the data were processed

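The authors deposited raw read counts in 1 table, for 27998 mouse genes and for human GATA1. Libraries were made by Smart-seq2, a full-length method that keeps no strand, with Nextera-based indexing, per the labels' protocols. Reads were aligned with STAR to GRCm38.p4 and hg19, per the submitters' processing notes. Which version of STAR, which counter and which annotation were used, and whether multi-mapping reads were counted, is not given in the sources used here.

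Counts were tested with edgeR 4.0.16 (R 4.3.3). TMM factors, filterByExpr and 1 mean per group over all 9 libraries left 9978 genes and 6 residual degrees of freedom. Genes were tested with glmQLFTest, adjusted over all tested genes by Benjamini-Hochberg and called at an adjusted p under 0.05. Standard errors are the log2 fold change over the root of F. CPM use TMM-scaled library sizes unless library totals are named. Reads carry no molecular identifiers, so counting intervals and floors reflect counting error alone. The test was checked on simulated data.

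Named were all called genes, the 5 label markers, the next 10 by p without names of Gm and a number, the 3 members with the smallest p of each of 20 lists and 9 textbook genes. The replicate numbers in the sample titles were checked for pairing by the correlation of deviations from group means. Same-numbered mutant and wildtype libraries gave r 0.171, 0.286 and 0.533, each over 0.1. Mutant library 1 with wildtype library 2 gave 0.24, so these values cannot settle whether the numbers mark pairs. The test of mutant against wildtype was therefore also run with the replicate number as a block. Its values are from the fit without the block unless the block is named. Mutant and empty vector libraries were not taken as paired. Other genes named were chosen after their values were seen. Members and lists were chosen with earlier results of these data known. Alternatives used DESeq2 1.42.0, limma 3.58.1 (voom) and sva 3.50.0. Gene positions are from GENCODE M21 (GRCm38) and promoters from RefSeq (GRCm38.p6).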

Additional observations from a re-analysis of the deposited data

How the results depend on the processing

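All 27 called genes kept their direction under each alternative that tested them. Against 21 higher and 6 lower, the counts were 119 and 296 without a low-count filter, 58 and 37 with DESeq2, 37 and 16 with length and GC offsets, 23 and 11 with 1 surrogate variable, and 9 and 2 with mutant libraries 1 and 2 summed. Leaving out 1 library gave 5 to 227 higher and 2 to 610 lower, the highest counts without empty vector library 3. The cause was not tested. The replicate block gave 12 and 2 calls in 9 libraries and 14 and 7 in 6. Same-numbered mutant and empty vector libraries deviated in opposite directions (r -0.243, -0.202 and -0.435), so the numbers were not taken to pair them. Changes of sign were followed only in genes picked by the naming rules above, and other uncalled genes were not checked. The uncalled genes among those picked that changed sign were Myc (-0.026 without empty vector library 1, up to 0.219 without empty vector library 3), Lck (0.133 without mutant library 1, 0.072 without empty vector library 3, down to -0.229 without mutant library 3) and Spi1 (-0.016 with 1 surrogate variable, -0.095 with offsets, -0.049 without empty vector library 1, up to 0.119 without mutant library 3). Counts near the 3-count floor limit Prelp, Hbb-y, Prg3, Cysrt1, Ms4a2 and Rnf224.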
